A study of Mus musculus with 12 samples.

Results

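The MYC network is a family of basic helix-loop-helix leucine zipper transcription factors and their partners, and 10 of its genes, chosen by symbol, were followed across bone marrow of WT mice and of 3 compound mutant genotypes. They were Myc, Mycl, Mycn, Max, Mxd1, Mxd4, Mxi1, Mnt, Mga and Mlx, and all 10 were present among the 12199 genes of the deposited table and entered the tests. The table held 11 libraries of mouse (C57BL/6) whole bone marrow (BM), with 3 of WT, 3 of DF (Dnmt3aFlox/+:MxCre with Flt3ITD/+), 3 of TF (Tet2+/- with Flt3ITD/+) and 2 of TFD (Tet2+/-, Flt3ITD/+, Dnmt3aFlox/+ and MxCre). TFD replicate 3 was not analysed here. The study asked whether carrying all 3 lesions changes gene expression in kind or only in degree relative to carrying a pair of them.

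All mice, WT included, had received poly(I:C), an interferon-inducing agent that switches on the Mx-Cre transgene, so interferon exposure was common to every group. The floxed Dnmt3a allele is deleted by MxCre in interferon-responsive cells, blood cells among them, whereas the Tet2 and Flt3ITD alleles are carried in all cells. The labels give no Cre for TF or WT. Total counts ranged from 8274153 to 15900904 per library. Tet2 lay between 7.21 and 7.40 log2 CPM (counts scaled to library size) in WT and between 7.09 and 7.71 in the Tet2+/- libraries, and Dnmt3a between 4.95 and 5.85 in WT and between 5.25 and 5.87 in DF and TFD, so neither level checks the genotype labels. The labels name mononuclear cells, yet 10 late neutrophil genes together took 51934 to 65432 CPM in WT, and erythroid and B cell genes were also present. Against WT, all 10 tested B cell markers fell in each mutant genotype, 10, 8 and 8 of 10 erythroid markers fell in DF, TF and TFD, and 6, 6 and 5 of 7 monocyte markers rose. Of all tested genes, 16.6%, 15.6% and 11.6% fell and 21.0%, 19.0% and 14.7% rose in DF, TF and TFD. TF replicate 3 had a summed erythroid marker level of 1555 CPM, within the WT range of 1523 to 1979, where the lowest TF library had 567. The TFD libraries also differed from each other, with late neutrophil markers at 46663 CPM in replicate 1 and 23241 CPM in replicate 2. The labels do not state sex, and at least 10000 reads of Xist, the transcript of the inactive X chromosome, were found in WT replicate 3, TF replicate 3 and TFD replicate 2 and in no DF library, so the libraries that stood apart in TF and TFD also differed in sex from the others of their genotype. In a bulk sample, fewer cells of a type and less RNA per cell cannot be told apart.

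MYC, MYCL and MYCN each bind DNA only as a dimer with MAX, at the E-box CACGTG, and activate genes for ribosome production, metabolism and growth. MXD1, MXD4, MXI1, MNT and MGA also pair with MAX and bind similar sites, where they recruit corepressors, and MXD1 is known to be induced as granulocytes mature. MLX is the partner of the glucose-responsive factors MLXIP (MondoA) and MLXIPL (ChREBP), and it also pairs with some MXD proteins and MNT. The network is therefore usually described as a competition for MAX.

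Expressed as RPKM, which scales reads to exon length and library size and so allows genes to be compared, Mxd1 was the highest of the 10 genes in every genotype. In WT it stood at 128 ± 15.1 RPKM (SD, n = 3), followed by Max at 44.8 ± 6.69 RPKM, and these ranges did not overlap. Mxd4 (23.3 ± 3.16), Myc (22.0 ± 1.70), Mga (20.6 ± 1.61) and Mlx (19.1 ± 0.477) followed in RPKM, each with a range overlapping the next. Mxi1 (14.4 ± 1.67 RPKM) and Mnt (5.94 ± 0.775 RPKM) were lower, each clear of its neighbours. Mycl (1.06 ± 0.333 RPKM) and Mycn (0.708 ± 0.173 RPKM) came last and overlapped. Myc was thus the main MYC family transcript in WT marrow. Of the summed RPKM of the 10 genes, Mxd1 made up 44.7% to 46.9% in WT, 34.0% to 35.7% in DF, 23.0% to 26.8% in TF and 27.7% to 31.6% in TFD.

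The order changed in the mutants at a few places. Mlx ranked 3 in DF, at 24.9 ± 1.59 RPKM, although its range still overlapped that of Mxd4. Mycn (1.20 ± 0.0547 RPKM) lay above Mycl (0.719 ± 0.332 RPKM) in DF without overlap. In TF and TFD it was Mycl that lay above Mycn without overlap, at 4.71 ± 1.67 and 2.91 ± 1.77 RPKM. Max remained second throughout, although in TFD its range overlapped that of Myc.

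**Figure D1:**
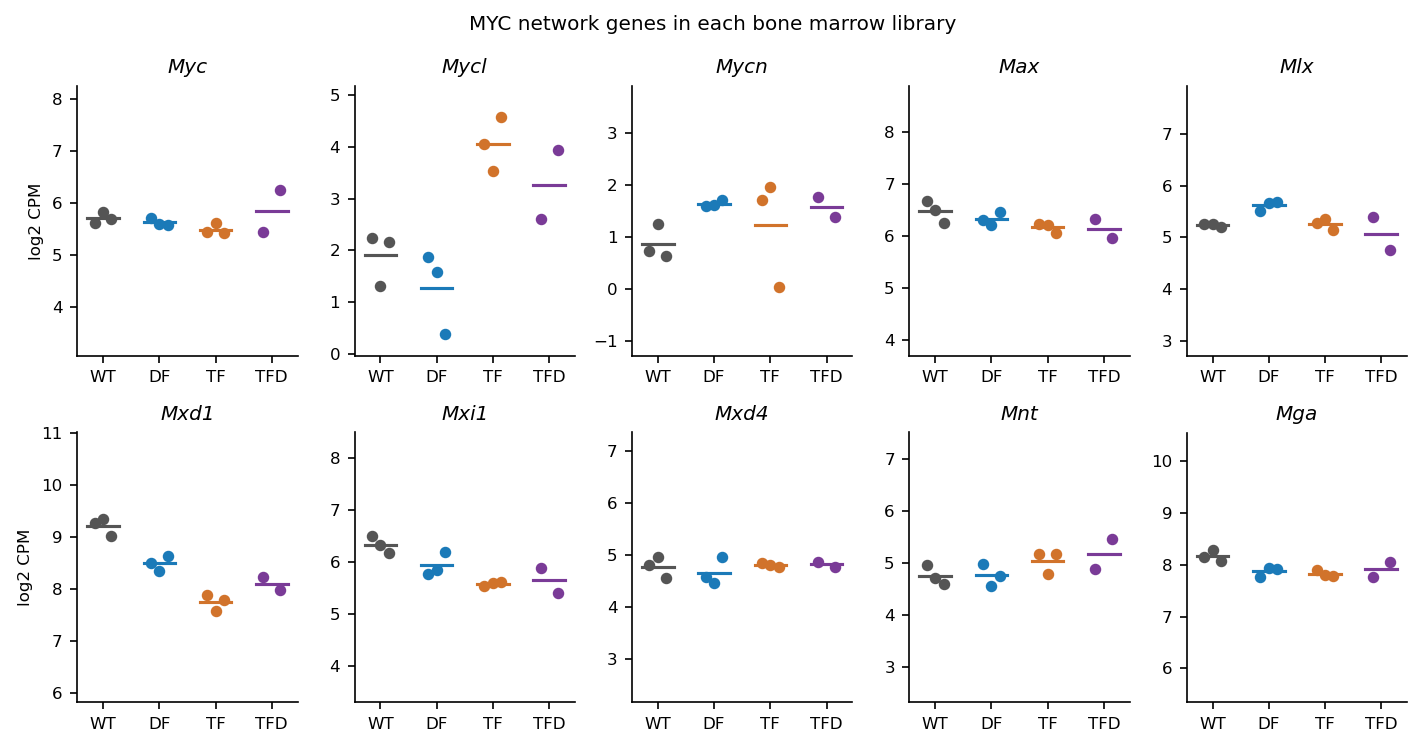
Level of each of the 10 genes in every library, in log2 CPM, by genotype, where each point is 1 library, the bar is the genotype mean and every panel spans the same log2 range. Mxd1 is lower in each mutant library than in each WT library, and Mycl is above every WT and DF library in TF and TFD.

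Mxd1 was downregulated in all 3 mutant genotypes, and it was the member with the lowest p-value in each comparison with WT. Its log2 CPM values were 9.28, 9.35 and 9.02 in WT, 8.50, 8.35 and 8.64 in DF, 7.88, 7.58 and 7.80 in TF, and 8.23 and 7.98 in TFD. No mutant library reached the lowest WT library, and the TF libraries lay below all others. Behind these levels were 2331 to 7564 reads per library. In DF the log2 fold change against WT was -0.72 ± 0.131 (SE), or 1.65-fold lower (adjusted p = 0.00105). TF showed the largest decrease, with a log2 fold change of -1.46 ± 0.133, or 2.76-fold lower (adjusted p = 1.07e-05). TFD lay between them at -1.11 ± 0.151, or 2.16-fold lower (adjusted p = 0.000239). The double mutants also differed directly, with Mxd1 1.67-fold higher in DF than in TF (log2 difference 0.74 ± 0.131, adjusted p = 0.00755). TFD was not separated from DF (DF minus TFD 0.39 ± 0.147, adjusted p = 0.267) or from TF (TF minus TFD -0.35 ± 0.145, adjusted p = 0.519). All 4 calls held in each of the 11 fits that left out a library.

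The levels of late neutrophil markers are given beside Mxd1. In TF, 4 of 10 were lower than in WT (Cxcr2, the chemokine receptor of mature neutrophils, by a log2 fold change of -1.18, and the granule gene Ngp by -0.85) and in TFD 2 of 10, with 0 higher, where 15.6% and 11.6% of all tested genes were lower. In DF, 0 of 10 passed the test in either direction, their median log2 fold change was 0.073 and their summed level was 58834 to 83126 CPM, against 51934 to 65432 in WT, while Mxd1 fell in the same libraries. In TF and TFD the summed level was 37031 to 47512 CPM and 23241 to 46663 CPM. No marker of the list was at 0 in any group. Genes of early granulocytes, such as Mpo (myeloperoxidase) and Elane (neutrophil elastase), rose in DF. Of 5 tested, 5 rose in DF, 1 in TF and 2 in TFD, where 21.0%, 19.0% and 14.7% of all tested genes were higher, 0 fell, and the medians were 0.93, 0.31 and 0.56 on the log2 scale. Their summed level was 2981 to 3138 CPM in WT, 4677 to 6490 CPM in DF, 2753 to 4494 CPM in TF, and 5736 and 3944 CPM in the TFD libraries. The part of early or late granulocytes in the Mxd1 decrease was not tested.

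Mxi1, which encodes a MAX partner of the same family, fell alongside Mxd1 by smaller amounts. It measured 6.50, 6.33 and 6.17 log2 CPM in WT, 5.77, 5.85 and 6.19 in DF, 5.53, 5.59 and 5.61 in TF, and 5.88 and 5.41 in TFD. TF and TFD lay wholly below WT, whereas DF replicate 3 reached into the WT range. TF gave a log2 fold change of -0.77 ± 0.146 (adjusted p = 0.00173), and for TFD it was -0.68 ± 0.165 (adjusted p = 0.00924). In DF it was -0.40 ± 0.145 (adjusted p = 0.0470), a call that was lost in 6 of 11 leave-one-out fits (without WT replicate 1 or 2, DF replicate 1 or 2, or TF replicate 1 or 2), with adjusted p up to 0.147. The TFD call was lost without TFD replicate 2 (-0.46, adjusted p = 0.0988). Any fit without a TFD library leaves 1 library in that genotype, which is then assumed to vary as the other genotypes do. DF and TF were not separated (0.37 ± 0.146, adjusted p = 0.177; 0.21 without DF replicate 3). An antisense gene model overlaps 194 bases of Mxi1, and the counting's use of strand is not given in the sources used here.

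The other 2 antagonists that pair with MAX as MXD proteins do, Mxd4 and Mnt, passed no test against WT. Mxd4 was the flattest of the 10 genes, with a range of 0.49 in log2 CPM over all 11 libraries and differences from WT of -0.11 ± 0.142 for DF, 0.029 ± 0.142 for TF and 0.045 ± 0.157 for TFD on the log2 scale. Mnt, a broadly expressed MAX partner, gave 0.0033 ± 0.176, 0.29 ± 0.175 and 0.44 ± 0.193. The highest Mnt level was 5.47 log2 CPM in TFD replicate 2, and with that library alone standing for TFD the value was 0.70 (adjusted p = 0.0322, the spread coming from the other genotypes), while TFD replicate 1 alone gave 0.13 (adjusted p = 0.684).

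Mga, which encodes a large MAX partner of a repressive Polycomb complex, was slightly lower in the mutants. It measured 8.14, 8.29 and 8.07 log2 CPM in WT, 7.76, 7.93 and 7.92 in DF, 7.89, 7.80 and 7.78 in TF, and 7.76 and 8.06 in TFD. All 8 mutant libraries lay below the lowest WT library, TFD replicate 2 by only a small margin. DF gave a log2 fold change of -0.29 ± 0.106 (adjusted p = 0.0438) and TF one of -0.34 ± 0.106 (adjusted p = 0.0246), while the TFD value of -0.25 ± 0.119 did not pass (adjusted p = 0.141) and was -0.11 for TFD replicate 2 alone and -0.40 for replicate 1 alone. Both calls were close to the threshold. That in DF was lost in 6 of 11 leave-one-out fits (without WT replicate 2, DF replicate 1 or 2, or any TF replicate; adjusted p up to 0.153), and that in TF in 4 (without WT replicate 2 or any TF replicate; adjusted p up to 0.0979).

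**Figure D2:**
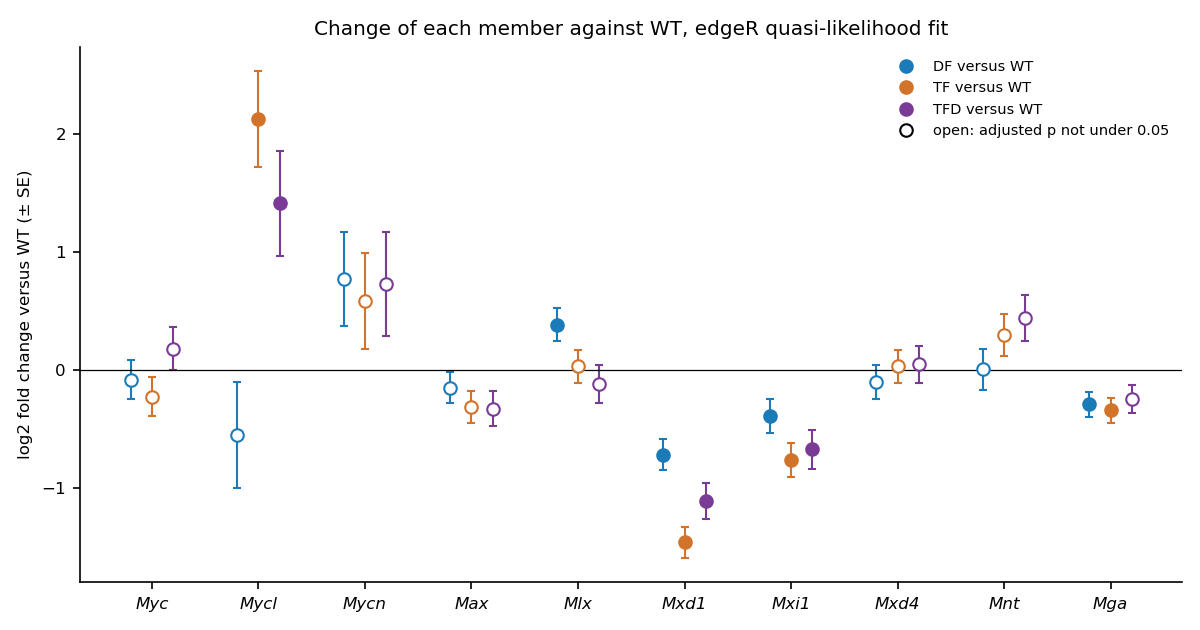
Log2 fold change of each gene against WT with its standard error, from the edgeR fit over 12175 genes, for DF, TF and TFD; filled points have an adjusted p under 0.05. Mxd1 and Mxi1 lie below 0 in all 3 genotypes, and Mycl lies above 0 in TF (2.12) and TFD (1.41) but not in DF (-0.55).

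Within the MYC family, Mycl passed the test in 3 of the 6 comparisons between genotypes and Myc in 0. Mycl (L-Myc) is known for its expression in dendritic cells. It measured 2.23, 1.32 and 2.17 log2 CPM in WT, 1.88, 1.58 and 0.39 in DF, 4.05, 3.53 and 4.57 in TF, and 2.61 and 3.93 in TFD. Every TF and TFD library lay above every WT and DF library. The counts were 57, 20 and 50 reads in WT, 46, 46 and 13 in DF, 205, 141 and 260 in TF, and 97 and 171 in TFD, so the low values rest on few reads. In TF, Mycl was 4.36-fold higher than in WT (log2 fold change 2.12 ± 0.406, adjusted p = 0.00177). In TFD it was 2.66-fold higher (1.41 ± 0.444, adjusted p = 0.0328). The DF value was -0.55 ± 0.449 (adjusted p = 0.352), and it was -0.29 without DF replicate 3 and -0.85 without DF replicate 1.

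The direct comparison of the double mutants put Mycl 6.39-fold lower in DF than in TF (log2 difference -2.68 ± 0.417, adjusted p = 0.00424). The DF and TFD levels differed by -1.96 ± 0.451 (adjusted p = 0.110), and the TF and TFD levels by 0.71 ± 0.420 (adjusted p = 0.694). With TFD replicate 1 alone these values were -1.20 and 1.49, and with replicate 2 alone -2.50 and 0.18. The TF calls against WT and DF held in all 11 leave-one-out fits. The TFD call against WT did not, since it was lost without WT replicate 1, 2 or 3 (adjusted p = 0.0519, 0.107 and 0.0638) and without TFD replicate 2, when TFD replicate 1 alone gave a log2 fold change of 0.62 (adjusted p = 0.376).

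Dendritic cell markers were higher alongside Mycl in TF. Of 13 such genes, 8 rose and 0 fell in TF, 6 rose and 2 fell in TFD, and 2 rose and 4 fell in DF, and 9 were lower in DF than in TF. Over all tested genes, 19.0%, 14.7% and 21.0% were higher in TF, TFD and DF against WT and 15.6%, 11.6% and 16.6% were lower. Between the double mutants, 4.27% were lower in DF than in TF. Their summed level was 397 to 438 CPM in WT, 459 to 582 CPM in DF, 791 to 1343 CPM in TF, and 567 and 791 CPM in the TFD libraries. The DF sums lay above WT, and the highest was above that of TFD replicate 1, but a sum is weighted to abundant genes. Medians of the 13 log2 fold changes against WT were -0.35 in DF, 1.25 in TF and 0.20 in TFD. Set against TF and TFD, 0 of 13 markers had a higher fitted level in DF, with medians of -1.60 and -1.05. Of the DF to TFD differences 0 passed. Clec9a, a receptor of conventional type 1 dendritic cells, rose against WT by 2.88 in TF and by 1.86 in TFD on the log2 scale, and its value for DF was 0.21, which did not pass. Xcr1, the chemokine receptor of the same cells, gave 1.77 in DF, 2.83 in TF and 2.82 in TFD, also passing in TF and TFD. Siglech, a marker of plasmacytoid dendritic cells, gave -6.29 in DF, -0.40 in TF and -3.91 in TFD, and it fell in DF and TFD. None of the 13 genes was at 0 in all libraries of a group. The part of these cells in the Mycl difference was not tested.

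**Figure D3:**
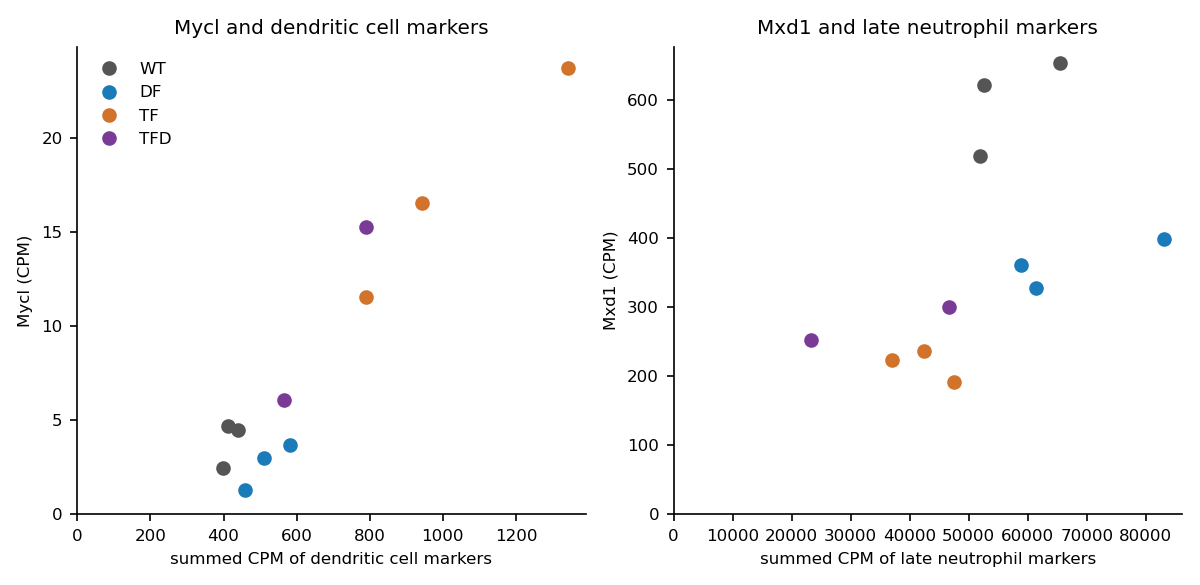
Left, Mycl in CPM against the summed CPM of 13 dendritic cell markers, and right, Mxd1 in CPM against the summed CPM of 10 late neutrophil markers, with 1 point per library coloured by genotype. On the left, all TF libraries (791 to 1343 CPM of markers) and both TFD libraries lie above every WT and DF library in Mycl, with TFD replicate 2 above TF replicate 2, and on the right the DF libraries hold less Mxd1 than WT at marker sums of 58834 to 83126 CPM.

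Myc itself passed no test in any of the 6 comparisons. The gene measured 5.62, 5.84 and 5.70 log2 CPM in WT, 5.72, 5.59 and 5.59 in DF, 5.44, 5.61 and 5.42 in TF, and 5.45 and 6.25 in TFD. The values of the first 3 genotypes lay close together, while the TFD libraries were among the lowest and the highest of all. The log2 fold changes against WT were -0.085 ± 0.164 in DF, -0.23 ± 0.164 in TF and 0.18 ± 0.181 in TFD (adjusted p = 0.704, 0.300 and 0.506). The TFD libraries went opposite ways, with -0.27 for replicate 1 alone and 0.53 for replicate 2 alone (adjusted p = 0.0199, which takes its spread from the other genotypes). TFD replicate 2 also held the highest Mnt level, the lowest Max, Mxi1 and Mlx levels and the lowest late neutrophil sum of all 11.

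Mycn, expressed in stem and progenitor cells, was near the limit of detection, at 11 to 54 reads per library. Its log2 CPM values were 0.73, 1.25 and 0.63 in WT, 1.60, 1.61 and 1.72 in DF, 1.70, 1.95 and 0.03 in TF, and 1.76 and 1.38 in TFD. All mutant libraries but TF replicate 3 lay above WT. None of its log2 differences from WT passed, with DF at 0.77 ± 0.400, TF at 0.58 ± 0.405 and TFD at 0.73 ± 0.438 (adjusted p = 0.146, 0.284 and 0.247). Without TF replicate 3, DF (adjusted p = 0.0343) and TF (0.97, adjusted p = 0.0192) did, and DF did so with only the groups compared (0.78, adjusted p = 0.0390). Without TF replicate 2 the TF value was 0.24 (adjusted p = 0.712).

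The common partner Max passed no test. It ran from 6.25 to 6.68 log2 CPM in WT, from 6.22 to 6.46 in DF, from 6.06 to 6.23 in TF, and was 6.32 and 5.97 in TFD. The TF libraries lay just below the lowest WT library. Its log2 fold changes were -0.15 ± 0.132, -0.32 ± 0.132 and -0.33 ± 0.148 (adjusted p = 0.374, 0.0801 and 0.122), and that of TF passed without WT replicate 3 (-0.43, adjusted p = 0.0312) and with a term for Xist reads (-0.31, adjusted p = 0.0283). The TFD value was -0.52 for replicate 2 alone and -0.16 for replicate 1 alone.

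Mlx was the only member called in DF but in neither of the other mutants. It measured 5.26, 5.26 and 5.20 log2 CPM in WT, 5.51, 5.66 and 5.68 in DF, 5.28, 5.36 and 5.14 in TF, and 5.39 and 4.77 in TFD. DF lay above all other libraries. The DF change of 0.38 ± 0.140 (adjusted p = 0.0471) was lost in 8 of 11 leave-one-out fits (without any WT or DF replicate or TF replicate 1 or 2; adjusted p up to 0.152) and under other scalings. The direct tests of DF against TF (0.35 ± 0.139, adjusted p = 0.176) and against TFD (0.50 ± 0.157, adjusted p = 0.195) did not pass, so a difference between the mutant genotypes was not shown. The difference from TFD was 0.85 with TFD replicate 2 alone and 0.20 with replicate 1 alone. Psmc3ip, on the other strand, overlaps Mlx by 385 bases and had at most 167 reads in a library.

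Set against all genes, the number of members that passed was ordinary in most comparisons. In DF against WT, 4 of 10 members passed (1 higher, 3 lower), where 37.6% of the 12175 tested genes did (21.0% higher, 16.6% lower). In TF against WT 4 passed (1 higher, 3 lower), against 34.6% of all genes (19.0% higher, 15.6% lower). In TFD against WT 3 passed (1 higher, 2 lower), against 26.3% (14.7% higher, 11.6% lower). The totals are close to the background, so the counts alone say little of the network. Between DF and TF, 2 of 10 members differed (Mxd1 higher and Mycl lower in DF), against 5.94% of all genes (1.67% higher, 4.27% lower). Between DF and TFD 0 of 10 members and 0.0% of all genes passed edgeR's test, although 4 members had an unadjusted p under 0.05, as had 1727 of the 12175 genes. DESeq2 called 1 member, Mycl, among 258 genes. Between TF and TFD 0 members and 0.0164% of all genes passed, with 2 members and 1068 genes at an unadjusted p under 0.05.

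The balance between antagonists and MYC family transcripts was described by the ratio of summed RPKM of Mxd1, Mxd4, Mxi1 and Mnt to that of Myc, Mycl and Mycn. The ratio was 8.02, 7.34 and 6.37 in WT, 4.73, 4.72 and 6.05 in DF, 3.82, 3.18 and 3.54 in TF, and 5.01 and 2.57 in TFD. Every mutant library lay below every WT library, DF replicate 3 most narrowly. The antagonist sum fell from a mean of 171.9 RPKM in WT to 116.4 in DF, 86.0 in TF and 100.4 in TFD, whereas the MYC family sum was 23.7, 22.6, 24.5 and 29.0 RPKM. Mxd1 supplied most of the difference, since the Mxd1 to Myc ratio alone was 5.14 to 6.50 in WT, 3.49 to 4.28 in DF, 2.01 to 2.80 in TF, and 3.54 and 1.71 in TFD. These are ratios of transcripts, and protein was not measured.

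**Figure D4:**
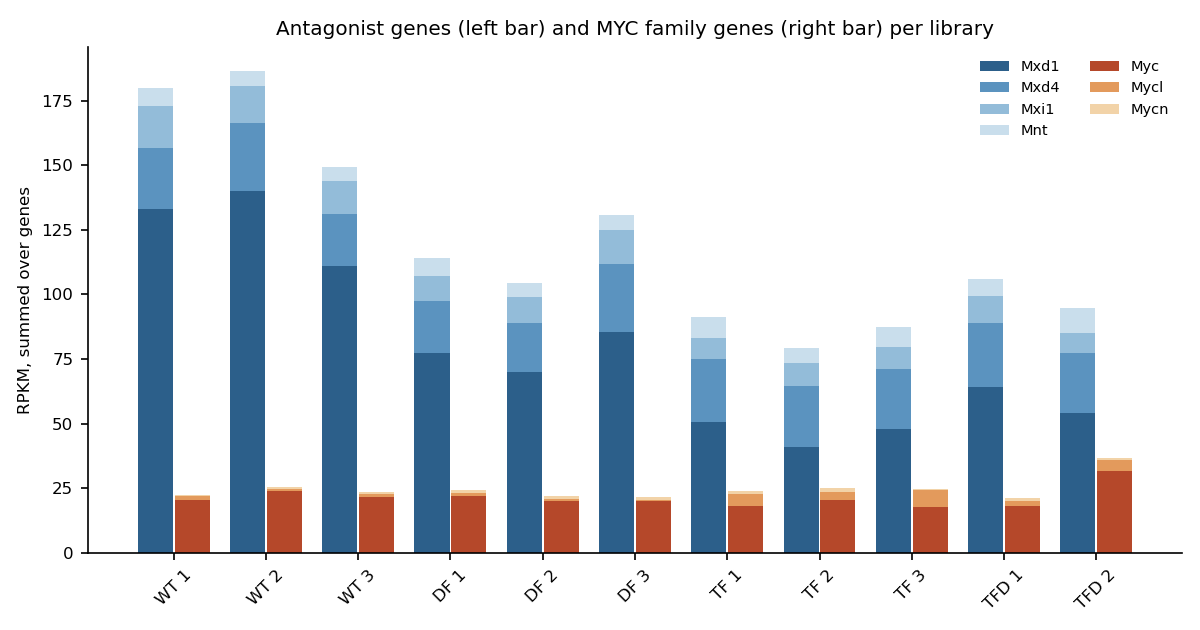
Summed RPKM of 4 antagonist genes (left, blue bars) and of 3 MYC family genes (right, orange bars) in each library, on a linear axis from 0. The antagonist bars shrink from a mean of 171.9 RPKM in WT to 86.0 in TF, mostly through Mxd1, while the MYC family bars stay near 24 RPKM apart from TFD replicate 2.

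Genes whose pattern was most like that of the most variable members were found by the root mean square difference of centred log2 CPM over the 11 libraries. Nearest to Mycl were Ctnnd2 (0.352), Kmo (0.415) and Clec9a (0.441), the last of which is on the dendritic list above. Nearest to Mxd1 were Capns2 (0.149), Phospho1 (0.153) and Cyfip2 (0.170). Nearest to Mycn were Pard3b (0.264), Afap1l1 (0.289) and Ssc4d (0.294), at the low read numbers given for Mycn.

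Of the further network genes, Mxd3, an MXD protein expressed in dividing cells, rose by 0.55 in DF (adjusted p = 0.0198) and by 0.85 in TF (adjusted p = 0.00177) on the log2 scale, opposite in direction to Mxd1, and its TFD value of 0.51 did not pass (adjusted p = 0.0556). Mlxip, which encodes MondoA, passed in none of these, and Mlxipl was not among the genes analysed here. Of 29 cofactors and turnover factors of MYC, 1 rose and 5 fell in DF, 1 rose and 5 fell in TF, and 1 rose and 2 fell in TFD. Over all tested genes, 21.0%, 19.0% and 14.7% were higher and 16.6%, 15.6% and 11.6% lower, so the falls alone say little of the cofactors. The gene that rose in each was Pim1, a kinase that stabilises MYC (log2 fold changes 0.44, 0.63 and 0.60). Bptf, a chromatin remodelling subunit that binds MYC, fell in each (-0.42, -0.49 and -0.33).

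Genes known as MYC targets are described by counts, to be read beside the shares of all tested genes that were higher and lower, 21.0% and 16.6% in DF, 19.0% and 15.6% in TF, and 14.7% and 11.6% in TFD. Of 29 ribosome biogenesis targets, 1 rose and 2 fell in DF, 0 rose and 4 fell in TF, and edgeR's test called 0 in TFD. Their median log2 fold changes were 0.021, -0.093 and -0.091, beside 0.055, 0.018 and 0.0069 over all tested genes. Ncl, the nucleolar protein nucleolin, fell in DF (-0.57) and TF (-0.75) and gave -0.28 in TFD, and Gar1, a subunit of the pseudouridylation complex, fell in DF (-0.80). Of 35 targets in metabolism and growth, 3 rose and 9 fell in DF, 2 rose and 8 fell in TF, and 1 rose and 8 fell in TFD, with medians of -0.15, -0.14 and -0.17, and cofactor medians of -0.12, -0.14 and -0.11. Mthfd1, an enzyme of folate metabolism, fell by 1.35, 1.05 and 1.18 on the log2 scale. Tfrc, the transferrin receptor, fell by 1.60, 0.89 and 1.38, and it is also on the erythroid list, most of which fell. The part of erythroid and B cells in these lists was not tested. Of 8 cycling cell markers, 0 rose in any genotype and 2, 1 and 4 fell in DF, TF and TFD.

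Of 6 genes that MYC is known to repress, 3 rose in DF, 2 in TF and 3 in TFD, and 0 fell, beside 21.0%, 19.0% and 14.7% of all tested genes called higher. Klf4, a transcription factor of monocytes among other cells, rose by 1.93, 1.93 and 2.01, and Ndrg1, a stress-responsive gene, by 1.17, 0.88 and 1.08 on the log2 scale, beside the rise of monocyte markers. The cell cycle inhibitor Cdkn1a of the same list gave 0.20, 0.17 and 0.45 and passed in none. Of 3 targets of MLX and MondoA, Txnip, an inhibitor of glucose uptake, fell in DF (-0.42, adjusted p = 0.0153) and gave -0.13 in TF and -0.037 in TFD, and the other 2 did not pass.

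**Figure D5:**
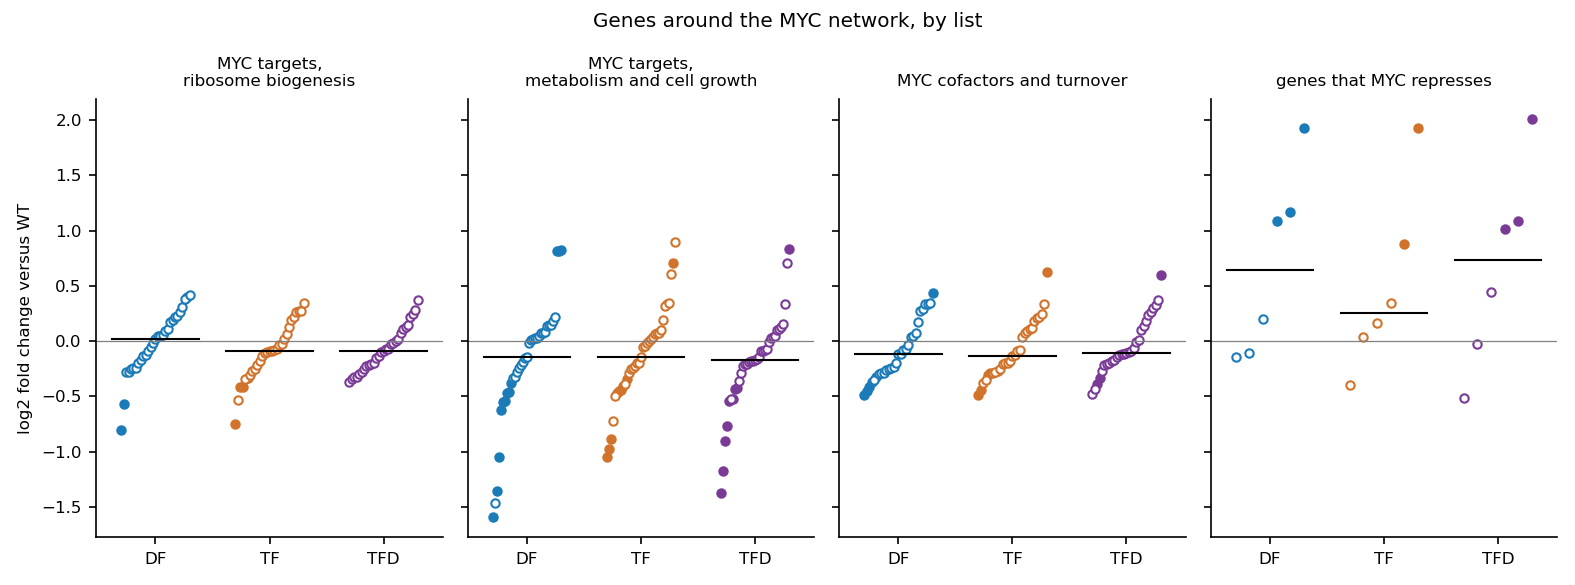
Log2 fold change against WT of each gene in 4 lists around the MYC network, sorted within a genotype, where filled points have an adjusted p under 0.05 and black bars are list medians. The ribosome biogenesis and growth lists lie around or slightly below 0 (medians 0.021 to -0.17), and Klf4 stands at the top of the repressed list in each genotype.

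The members lie apart on the mm10 assembly, with Mxd1 on the minus strand at chr6:86647045-86669159, Mycl on the plus strand at chr4:122995931-123002480 and Myc on the plus strand at chr15:61985341-61990361. RefSeq promoters (GRCm38.p6, the same assembly, from 250 bases before to 50 after the start) were held for 9 of the 10 genes and not for Myc. The sequence CACGTG, which reads the same on both strands, occurred in 4 of the 11 promoters of these genes, beside 10.1% of 11759 promoters of tested genes. The 4 genes were Max, Mxd4, Mnt and Mlx. They are shown because this is the site that MYC and MAX bind, 30 bases each on the gene's strand with the E-box in capitals:
Max, E-box at chr12:76962246-76962251: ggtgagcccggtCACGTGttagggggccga
Mxd4, E-box at chr5:34187924-34187929: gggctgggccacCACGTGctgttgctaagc
Mnt, E-box at chr11:74830801-74830806: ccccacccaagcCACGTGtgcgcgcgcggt
Mlx, E-box at chr11:101087250-101087255: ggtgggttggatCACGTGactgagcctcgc
The match begins 3, 219, 123 and 40 bases before the start of Max, Mxd4, Mnt and Mlx. Of these genes only Mlx was called, in DF. No such match lay in the windows of Mxd1, Mxi1, Mycl, Mycn or Mga, which says only that these letters are not there.

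DNMT3A and TET2, the enzymes whose genes are altered in these mice, act at CG dinucleotides, the former by methylating them and the latter by oxidising the methyl group, and methylation was not measured in these data. The 250 bases before the start of the 2 genes that differed between DF and TF are therefore shown with CG in capitals. The Mxd1 window (chr6:86669160-86669409, minus strand) holds 32 CG and is 78.4% G or C, and the Mycl window (chr4:122995681-122995930, plus strand) holds 14 and is 63.6% G or C. The median over promoters of tested genes was 15 CG, with quartiles of 8 and 23, and 59.6% G or C, so Mxd1 lay above the upper quartile and Mycl near the median.
Mxd1: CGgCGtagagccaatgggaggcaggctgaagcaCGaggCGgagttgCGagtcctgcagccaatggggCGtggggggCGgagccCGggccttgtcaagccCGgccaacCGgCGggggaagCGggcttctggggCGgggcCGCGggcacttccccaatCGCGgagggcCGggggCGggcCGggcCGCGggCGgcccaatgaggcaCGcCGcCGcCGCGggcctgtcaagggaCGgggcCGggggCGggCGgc
Mycl: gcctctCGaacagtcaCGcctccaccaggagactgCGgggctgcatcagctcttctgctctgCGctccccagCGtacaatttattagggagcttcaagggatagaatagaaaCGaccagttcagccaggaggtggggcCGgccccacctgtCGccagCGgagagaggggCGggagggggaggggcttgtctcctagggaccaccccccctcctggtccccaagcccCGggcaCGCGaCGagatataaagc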

How the data were processed

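RNA was extracted from whole BM, depleted of globin mRNA and made into stranded total RNA libraries. The authors aligned reads to mm10 with STAR and counted them per gene with featureCounts; versions and strandedness of counting are not given in the sources used here. The deposited counts are raw reads for 12199 genes that had passed the authors' own filter on low values. The deposited log2 CPM values carry TMM factors, since edgeR with a prior count of 0.25 gave them from the counts to within 5e-09. A further deposited column of another kind is the gene length in bases.

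Genotypes were taken from the sample labels. The 12175 genes above 0.5 CPM in over 3 libraries (24 were left out) were fitted in edgeR 4.0.16 (R 4.3.3) with TMM factors (0.924 to 1.04) in 1 quasi-likelihood model of the 4 genotypes. P-values were adjusted over all 12175 genes by Benjamini-Hochberg, and adjusted p under 0.05 counted as passing. The SE is the log2 fold change divided by the square root of F. RPKM used the deposited length. The study describes its data points as values of individual mice, but the sources do not state this for the RNA libraries; if libraries shared mice, p-values measure only a spread that may be technical. The intervals implied by SEs cover only these libraries, and the depth of 8274153 to 15900904 reads leaves genes such as Mycn at 11 to 54 reads. On simulated data with these libraries' depths, the test of TF against WT recovered 77 of 100 genes changed by 1 on the log2 scale. It recovered 97 of 100 changed by 2, with 15 false calls among 12175 genes. Far fewer genes were changed there than were called in the data, and no TFD comparison was simulated, so these rates may not hold here.

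The members and lists were chosen with earlier results of these data known. All members were named, and list genes were named by a rule: the 2 genes of each pathway list with the largest absolute log2 fold change among those passing against WT, and, for members with an SD of log2 CPM above 0.5, the 3 genes nearest in pattern. Marker genes, Cdkn1a, Mlxip and Psmc3ip were named after their values were seen. Alternatives were RLE factors, library totals, DESeq2 1.42.0, limma 3.58.1 on log2(CPM + 1), no filter, a filter of more than 1 CPM in every library of a genotype (12100 genes), only the groups compared, a replicate block, a term for Xist reads (3 libraries with at least 10000), and leaving out each library. Promoters came from RefSeq (GRCm38.p6). Gene positions were those deposited with the counts, and overlapping gene models came from GENCODE on the same assembly.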

Additional observations from a re-analysis of the deposited data

How the results depend on the processing

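The calls of Mxd1 against WT in all 3 mutants and between DF and TF, of Mxi1 and Mycl in TF against WT, and of Mycl between DF and TF held under every alternative and in each of the 11 fits that left out a library. In DF against WT, the number of members called was 2 with the replicate block, 2 with the Xist term and 1 to 4 with a library left out. In TFD against WT it was 1 (without TFD replicate 2) to 6 (without TFD replicate 1) with a library left out, both from fits in which 1 library stood for TFD and the other genotypes gave the spread, with 2400 and 2361 genes called in all, against 3205 with both libraries. It was 1 in DF against TFD with DESeq2 (Mycl, -2.02, adjusted p = 0.00231), and with a library left out 0 to 3 in DF against TFD and 0 to 1 in TF against TFD, the highest both without TFD replicate 1 and so with the same limit. Mycl in DF against TFD also passed without TF replicate 3, with both TFD libraries kept (-1.96, adjusted p = 0.0277, among 229 genes called). Without TFD replicate 1, calls over all genes also rose, from 0 to 384 in DF against TFD and from 2 to 76 in TF against TFD. Beside the calls already given as lost, that of Mlx in DF was lost with RLE factors (0.34), library totals (0.29), DESeq2 (0.34), the block (0.39) and the Xist term (0.29), that of Mga in DF with only the groups compared (adjusted p = 0.0640) and the Xist term (0.0643), that of Mxi1 in DF with the block (adjusted p = 0.0564) and that of Mycl in TFD with the block (1.47, adjusted p = 0.0577). Calls gained were those of Max in TF with the Xist term (-0.31, adjusted p = 0.0283) and without WT replicate 3, of Mycn in DF with only the groups compared (0.78, adjusted p = 0.0390), of Mycn in DF and TF without TF replicate 3, of Myc, Mnt and Mlx (-0.47, adjusted p = 0.0433) in TFD against WT without TFD replicate 1, and those between DF or TF and TFD counted above. The cause was not tested. The log2 ratio of antagonist to MYC family transcripts was 2.85, 2.36, 1.81 and 1.84 in WT, DF, TF and TFD by RPKM. By CPM without length it was 3.64, 3.10, 2.32 and 2.47. The TFD libraries were far apart, with an SD of 0.68 by RPKM and 0.71 by CPM.

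Deviations of same-numbered libraries from their genotype means correlated at -0.299 to 0.247 over 15 pairs of different genotypes (median 0.029). The main fit did not use the numbers as pairs. Such correlations cannot exclude that same-numbered samples shared a litter or handling.

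Directions turned only among members that had not passed. Mnt in DF against WT became -0.042 with RLE factors, -0.085 with library totals and -0.041 with DESeq2. Mga in DF against TF became -0.039 and Mycn in DF against TFD -0.049 with library totals. With the Xist term, Mycn in DF against TFD became -0.33 and Max in TF against TFD -0.024. The log2 fold changes that turned with a library left out ranged as follows. In DF against WT, they ran for Mnt from -0.13 to 0.10. In TF against WT, they ran for Mxd4 from -0.079 to 0.12 and Mlx from -0.025 to 0.086. In TFD against WT, they ran for Myc from -0.27 to 0.53, Mxd4 from -0.056 to 0.14 and Mlx from -0.47 to 0.16. In DF against TF, they ran for Mycn from -0.19 to 0.53. In DF against TFD, they ran for Myc from -0.61 to 0.15, Mycn from -0.16 to 0.26, Max from -0.022 to 0.36 and Mga from -0.18 to 0.079. In TF against TFD, they ran for Myc from -0.76 to 0.032, Mycn from -0.48 to 0.23, Max from -0.16 to 0.20, Mxd4 from -0.069 to 0.029, Mxi1 from -0.32 to 0.17, Mnt from -0.41 to 0.15, Mga from -0.23 to 0.052 and Mlx from -0.13 to 0.50.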
